A study of Homo sapiens with 4 samples.

Results

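The distribution of RNA between polysomes and lighter fractions was measured in MDA-MB-231 cells reconstituted with K177Q-METTL3, from 1 polysome and 1 sub-polysome library. MDA-MB-231 is an established human breast cancer cell line, and METTL3 is the catalytic subunit of the m6A RNA methyltransferase. K177Q replaces a lysine of METTL3 with glutamine and is used as a mimic of acetylated lysine. Genes entered when their mean over the 2 K177Q libraries was at least 1 FPKM (fragments per kilobase of transcript, scaled to all fragments of the library), which kept 10901 of the 28198 genes listed. Each gene was described by its log2 ratio, the log2 of (polysome FPKM + 0.1) over (sub-polysome FPKM + 0.1), so that positive values lie on the polysome side. USP46 and TXK lay just inside the limit, with log2 ratios of −0.08 and −1.95, and ACCS and WDFY2 just outside it, at 0.30 and 0.78.

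Of the 4 libraries used, the other 2 are the polysome and sub-polysome RNA of cells reconstituted with WT-METTL3, and they serve here only as a second view of the same genes. Both lines had been depleted of METTL3 and then given the protein back by lentivirus, so both carry an introduced copy, and whether a line is 1 clone or a pool is not given in the sources used here. All cells received cycloheximide, which holds ribosomes on their mRNA, before lysis and sucrose gradient centrifugation. The sub-polysome pool joined the free ribosomal subunits and the single ribosome, the polysome pool joined the heavier fractions, and poly(A)-selected RNA of each pool was sequenced. Only 1 library per pool and genotype could be matched to a listed sample and was analysed here (the table's 4 further value columns match none and were not used), so the differences have no replicate check, no test was run and no p-value is given.

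In polysome profiling, an mRNA sediments further the more ribosomes it carries. Initiation loads ribosomes at the start of the reading frame, and a longer frame has room for more of them at once. RNAs that are not translated, or that are held back before the start codon, remain with the light fractions. The ratio reported here is therefore a distribution between 2 pools, and not an amount of protein made.

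METTL3 itself was measured at 29.5 FPKM in the K177Q polysome library and 5.07 FPKM in the K177Q sub-polysome library. In the WT libraries the levels were 38.7 and 9.39 FPKM. Endogenous and introduced METTL3 RNA cannot be told apart in these values, nor can the K177Q change be seen in them. The mesenchymal marker VIM reached between 677 and 1543 FPKM in the 4 libraries, while the hormone receptor genes ESR1 and PGR did not exceed 0.012 FPKM and the epithelial cadherin CDH1 reached 0.632 FPKM at most. The receptor gene ERBB2 was present at 12.2 to 28.3 FPKM. From the smallest values in the table, the libraries held roughly 25200000 to 29000000 fragments each, an approximation. The libraries differed in composition. Cytosolic ribosomal protein genes made up 14.5% of the summed FPKM in K177Q polysomes and 26.6% in K177Q sub-polysomes, beside 17.8% and 26.3% in WT. FPKM is relative to each library, so a log2 ratio of 0 does not mark equal absolute amounts.

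The log2 ratios of the 10901 genes had a median of 0.16 and an SD over genes of 1.003. Their 5th to 95th percentiles ran from −1.79 to 1.42, a span of 9.25-fold. On this scale 1559 genes (14.3%) reached 2-fold or more on the polysome side, and 1403 genes (12.9%) on the sub-polysome side. The low side reached further than the high side, since 426 genes were at least 4-fold lower and 71 at least 4-fold higher. The extremes of the range, −6.37 and 5.67, belonged to ZNF687-AS1, listed at 0 in polysomes, and to the readthrough gene HNRNPUL2-BSCL2, at 5.00 FPKM in polysomes and practically 0 in sub-polysomes, and 18 genes were listed at 0 in one of the libraries (17 of them in polysomes). The scale moved the zero point. With TPM the median became 0.59 (a shift of 0.43) and the split 30.6% higher and 7.61% lower. With equal totals outside ribosomal protein genes the median shifted by 0.21 and the split was 21.7% and 10.1%, and with the median set to 0 it was 9.93% and 15.6%. Gene lists are therefore also read against the median of all genes.

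RNA classes separated along the ratio. Among 10379 mRNAs the median log2 ratio was 0.21, of which 1551 reached 2-fold on the polysome side and 1018 on the other. Among 409 long noncoding RNAs (lncRNA) the median was −1.94, of which 6 reached 2-fold on the polysome side and 321 on the sub-polysome side, which is 78.5% beside 12.9% of all genes. The 93 genes of the class misc_RNA lay between, with a median of −1.14 and 50 (53.8%) at least 2-fold lower. A gene can pass the limit on the mean through 1 library alone. Of the 228 lncRNAs with at least 1 FPKM in each library, 162 (71.1%) were at least 2-fold lower, and their median was −1.72. The lowest 1% of genes held 69 lncRNAs and 33 mRNAs among its 109 members, and the highest 1% held 106 mRNAs and 3 lncRNAs.

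Host genes of small nucleolar RNAs, whose introns carry the small RNAs while the spliced exon RNA has little coding capacity, formed the lowest group. All 22 kept members of the list of 32 were at least 2-fold lower (100%, beside 12.9% of all genes). Their log2 ratios ran from −5.62 to −1.35, with a median of −2.78, or −2.94 against all genes. SNHG9 was measured at 4.42 FPKM in polysomes and 222 FPKM in sub-polysomes, a log2 ratio of −5.62. SNHG19 was measured at 10.6 and 306 FPKM (−4.84), and GAS5 at 77.0 and 685 FPKM (−3.15). The least displaced members were SNHG21 at −1.35 and SNHG11 at −1.66. The approximate counting error on the log2 scale was 0.23 for SNHG9, 0.14 for SNHG19, 0.04 for GAS5, 0.21 for SNHG21 and 0.18 for SNHG11.

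Antisense RNAs and intergenic LINC RNAs lay nearly as low. Of 143 antisense RNAs kept, 113 lay at least 2-fold on the sub-polysome side and 2 on the polysome side (79.0% and 1.40%, beside 12.9% and 14.3% of all genes), with a median of −1.95. Without a filter the median was −1.12 and with a pseudocount of 1 it was −1.27. Of 77 LINC RNAs, 59 (76.6%) were at least 2-fold lower and none at least 2-fold higher, with a median of −1.98, which became −0.88 without a filter and −1.33 with a pseudocount of 1. PPP1R14B-AS1 stood at 0.98 FPKM in polysomes and 31.1 FPKM in sub-polysomes, LINC01088 at 2.57 and 54.2 FPKM. The polysome library listed ZNF687-AS1, EXOSC10-AS1, LINC01063 and LINC01715 at 0, with 8.16, 5.56, 4.20 and 2.51 FPKM in sub-polysomes, so no fold is given. The exceptions on the polysome side were PCNA-AS1, at 2.47 and 0.297 FPKM (2.696), and VIM-AS1, both named for an abundant coding gene on the other strand. VIM-AS1 was measured at 38.0 and 9.63 FPKM (1.97) and shares exonic sequence with VIM (1543 and 692 FPKM, 1.16). Whether the counting used strand is not given in the sources used here, so such pairs are uncertain. The nuclear RNA MALAT1 was at only 0.97 and 1.06 FPKM (−0.11), and the cytoplasmic lncRNA NORAD at 14.2 and 25.2 FPKM (−0.82). Among noncoding RNAs at 10 FPKM or more, the highest after VIM-AS1 were the pseudogene H3P6 (0.63), LOC728554 (0.23), WASH2P (−0.03) and LOC108783654 (−0.60), and the lowest included LOC100506100 (−4.30).

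Cytosolic ribosomal protein mRNAs had the lowest median of the coding lists examined. None of the 85 kept was at least 2-fold higher and 46 (54.1%) were at least 2-fold lower, beside 12.9% of all genes. Their median was −1.10, or −1.26 against all genes, with similar medians for the large subunit (−1.06, n = 51) and the small subunit (−1.11, n = 34). Within the family the ratio went with coding length, at a Spearman rho of 0.59 over the 85 genes, which share both libraries. RPS29 was measured at 1709 FPKM in polysomes and 17543 FPKM in sub-polysomes (−3.36), RPS12 at 606 and 5946 FPKM (−3.29), RPL41 at 350.1 and 2409 FPKM (−2.78) and RPL39 at 1616 and 8298 FPKM (−2.36). RPL15 at 803 and 751 FPKM (0.10) and RPL10A at 1839 and 1921 FPKM (−0.06) formed the upper end. Reads of these genes can also match processed pseudogenes, which leaves single values uncertain.

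Ribosomal protein mRNAs begin with a 5′ terminal oligopyrimidine (TOP) tract, a C followed by pyrimidines, through which growth signalling sets their translation. The 30 bases around the annotated RefSeq start (GRCh38.p14, 15 on each side, read 5′ to 3′) are shown for 8 TOP genes of differing ratio, for the thymosin gene TMSB10 of the low end and for 4 genes of the high end, with capitals marking a C followed by at least 6 further C or T bases that begins within 10 bases of the start.
RPS12, chr6:132814554-132814583, plus strand: gcgtgcggatgaggCCTCTTTCCCTgccgc
RPS29, chr14:49598696-49598725, minus strand: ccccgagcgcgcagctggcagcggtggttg
RPL15, chr3:23916530-23916559, plus strand: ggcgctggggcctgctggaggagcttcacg
RPS27, chr1:153990747-153990776, plus strand: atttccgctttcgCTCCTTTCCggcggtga
RPL10A, chr6:35468386-35468415, plus strand: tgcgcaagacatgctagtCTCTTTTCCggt
TPT1, chr13:45341169-45341198, minus strand: agcggctgagtcggCCTTTTCCgcccgctc
EEF1A1, chr6:73521018-73521047, minus strand: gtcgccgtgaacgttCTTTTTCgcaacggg
EEF2, chr19:3985449-3985478, minus strand: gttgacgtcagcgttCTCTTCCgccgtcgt
TMSB10, chr2:84905641-84905670, plus strand: gggcgccgCTCTTTTgtttcttgctgcagc
LAMB3, chr1:209652411-209652440, minus strand: ggaggggagacccccacattcaagaggagc
FLNA, chrX:154374620-154374649, minus strand: ggcggcggcccattcgcgtggaggcgcgtc
EIF4A3, chr17:80147114-80147143, minus strand: gttctcggcagcggcacagcgaggtcggca
PSMC6, chr14:52707185-52707214, plus strand: ttcccggcatcccctatgagagacggcttc

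At the RefSeq starts used for RPS29 and RPL15, the lowest and the highest ribosomal protein mRNA, no such run was present, and TMSB10 held one. Only 1 start per gene was examined. The RPL15 window ends before the gene start of the annotation used for coding lengths (position 23916591). A tract at another start of RPS29 or RPL15 could therefore not be seen, and these windows do not show that the mRNAs lack one. Read in the sense of the mRNA, the tract was found in 53 of the 68 ribosomal protein promoters that the table holds (77.9%). It was also found in 10 of 15 of the other TOP genes and in 13.4% of all 27305 promoters in the table. It was held by 15.3% of promoters in the lowest 10% of genes and by 12.6% in the highest 10%. Outside the ribosomal protein genes, the 1139 mRNAs with a tract had a median log2 ratio of 0.16 and the 7264 without one a median of 0.23. Genes of the list of other TOP mRNAs were found across the range, though no start window is shown for PABPC1 and LDHB among them. TPT1, a growth-related calcium-binding protein, was measured at 78.1 FPKM in polysomes and 361 FPKM in sub-polysomes (−2.21), and the poly(A)-binding protein gene PABPC1 of the same list at 61.7 and 265 FPKM (−2.10). The elongation factor mRNAs lay near 0, EEF1A1 at 2116 and 2106 FPKM (0.01) and EEF2 at 281 and 264 FPKM (0.09). LDHB, at 616 and 162 FPKM, reached 1.93. The 21 other TOP mRNAs had a median of 0.09, which falls below 0 when the median of all genes is set to 0. On each side 2 members (9.52%) were past 2-fold, below the 14.3% (polysome side) and 12.9% (sub-polysome side) of all genes.

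Short reading frames marked the low end of mRNAs beyond the ribosomal proteins. The 10 lowest mRNAs at 10 FPKM or more were SELENOW, SVIP, SMIM27, AP1M2, CMC4, RPS29, TMSB10, TMA7, RPS12 and KRT10. The actin-binding thymosins were among the most abundant RNAs of the sub-polysome library, with TMSB10 at 2936 FPKM in polysomes and 29398 FPKM in sub-polysomes (−3.32) and TMSB4X at 3483 and 31216 FPKM (−3.16), and their coding length is 135 nt. TMA7, a small protein associated with the translation machinery, was measured at 149 and 1466 FPKM (−3.30, coding length 195 nt) and SVIP, a small inhibitor of VCP-dependent degradation, at 2.08 and 24.9 FPKM (−3.52, 234 nt). AP1M2, an adaptor protein of clathrin-coated vesicles, at 8.96 and 98.1 FPKM, and the keratin KRT10, at 7.75 and 74.6 FPKM, were as low with coding lengths of 1272 and 1755 nt.

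Over 10287 mRNAs with an annotated coding length, the median log2 ratio increased across each of 11 length bins. It was −2.02 for the 40 mRNAs of up to 200 nt, 38 of which were at least 2-fold lower (95%, beside 9.81% of all mRNAs). It was −1.04 from 201 to 300 nt, −0.33 from 401 to 600 nt and 0.03 from 601 to 900 nt. It continued to 0.30 from 1201 to 1800 nt and 0.55 from 2701 to 4000 nt, and it reached 0.96 in the 202 mRNAs above 6000 nt. Of these longest mRNAs, 96 were at least 2-fold higher (47.5%, beside 14.9% of all mRNAs). The Spearman rho of ratio and coding length was 0.39 in K177Q and 0.23 in WT for the same mRNAs, which share the annotation and the gradient design. Taking away the median of each bin narrowed the SD from 0.880 to 0.788, so most of the spread lay within bins of similar length. The lowest 10% of genes held mRNAs with a median coding length of 597 nt, the highest 10% of 1932 nt, and all mRNAs of 1320 nt.

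ATG triplets ahead of the main start codon went with a lower ratio. Among the 3971 mRNAs with coding lengths of 901 to 1800 nt, the median was 0.43 for the 2495 with no upstream ATG, 0.02 for the 737 with 1, −0.10 for the 323 with 2, −0.08 for the 166 with 3, −0.31 for the 97 with 4 and −0.28 for the 153 with 5 or more. The share at least 2-fold higher was 19.2% with none and 3.27% with 5 or more, beside 14.9% of all mRNAs. Spearman rho was −0.31 in K177Q and −0.32 in WT over these mRNAs, and −0.15 and −0.22 over all 10287. Longer 3′ UTRs went with lower log2 ratios in the same window, from a median of 0.59 at up to 200 nt to 0.15 from 2001 to 4000 nt and 0.21 above that. For 3′ UTR length, Spearman rho was −0.14 in K177Q and −0.26 in WT in the window. Over all 10287 mRNAs it was −0.05 and −0.19.

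**Figure D1:**
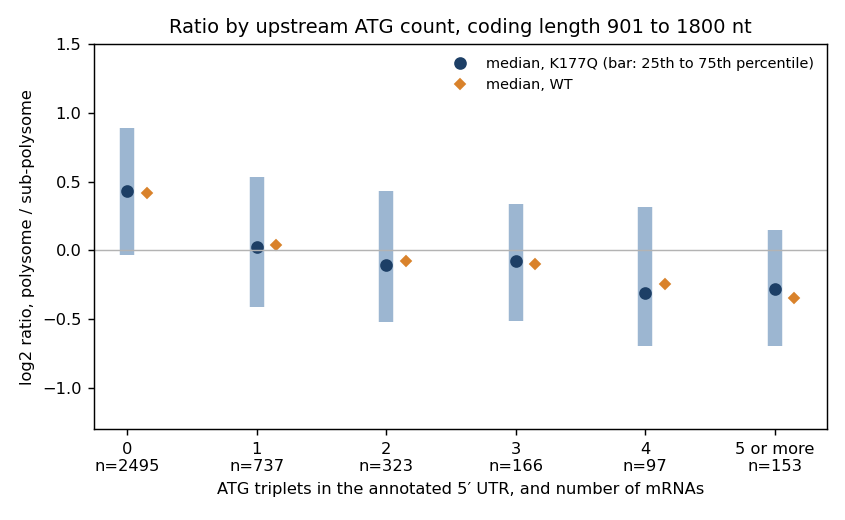
Median log2 ratio by number of ATG triplets in the annotated 5′ UTR for mRNAs with coding lengths of 901 to 1800 nt, in K177Q (circles, bars from the 25th to the 75th percentile over genes) and WT (diamonds). The K177Q median falls from 0.43 without an upstream ATG to −0.28 with 5 or more.

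Lists of genes known for control of their translation, by uORFs or by other means, were examined next. The integrated stress response lowers initiation at most start codons and favours mRNAs whose upstream reading frames (uORFs) otherwise hold ribosomes back. Of its 16 uORF genes, 4 were at least 2-fold lower (25%, beside 12.9% of all genes) and 1 higher by as much, and the median of −0.19 turned positive with TPM or with equal totals. ATF4, the main transcription factor of the response, was measured at 85.1 FPKM in polysomes and 354 FPKM in sub-polysomes (−2.06). The factor DDIT3 was measured at 15.2 and 47.8 FPKM (−1.65), and the phosphatase subunit PPP1R15A at 47.8 and 102 FPKM (−1.09). EPRS1, a tRNA synthetase of the list, was at 16.4 and 6.80 FPKM (1.26). The polyamine genes had a median of −0.58 over 11 members, with 2 at least 2-fold lower (18.2%) and 1 at least 2-fold higher (9.09%, beside 14.3% of all genes). The latter was the oxidase PAOX at 22.4 and 8.55 FPKM (1.38). Others were antizyme OAZ1 at 497 and 1932 FPKM (−1.96), spermidine synthase SRM at 124 and 258 FPKM (−1.06) and the decarboxylase AMD1 at 12.4 and 18.5 FPKM (−0.58). In the annotated transcripts AMD1 held 1 upstream ATG, while OAZ1, SRM, PAOX and also EPRS1 held none. Short uORFs of ATF4 and AMD1, from the annotated GRCh38 transcripts, are shown with the start codon in capitals.
ATF4, first uORF, chr22:39520586-39520591, plus strand: ATGtag
ATF4, next uORF, chr22:39520648-39520659, plus strand: ATGgcgtattag
AMD1, chr6:110874796-110874816, plus strand: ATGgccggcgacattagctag
The uORF of AMD1 has 6 codons before its stop and those of ATF4 have 1 and 3, followed in ATF4 by another of 59 codons. DDIT3 holds 3 upstream ATG triplets with frames of 34, 31 and 73 codons.

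Ferritin mRNAs carry an iron-responsive element, a hairpin whose loop binds the iron regulatory proteins that block initiation when iron is low. Both ferritin subunits lay low. FTL was measured at 779 FPKM in polysomes and 3730 FPKM in sub-polysomes (−2.26) and FTH1 at 464.5 and 1421 FPKM (−1.61). The 9 kept iron regulatory genes had a median of 0.17, which was −0.11 without a filter and −0.07 at a minimum mean of 10 FPKM, and included the iron regulatory protein ACO1 at 39.4 and 12.3 FPKM (1.67). The 30 bases around the CAGTGN loop of the ferritin 5′ UTRs, with the loop in capitals, are given for both.
FTL, chr19:48965335-48965364, plus strand: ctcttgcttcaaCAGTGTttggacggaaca
FTH1, chr11:61967573-61967602, minus strand: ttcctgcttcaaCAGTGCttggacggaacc

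Selenoproteins read an in-frame TGA as selenocysteine. Of 18 kept, 5 (27.8%, beside 12.9% of all genes) lay past 2-fold on the sub-polysome side and 2 (11.1%, beside 14.3%) on the polysome side, with a median of −0.72. SELENOW was the lowest mRNA at 10 FPKM or more, with 20.4 FPKM in polysomes and 299 FPKM in sub-polysomes (−3.87). The glutathione peroxidases GPX1, at 266 and 1842 FPKM (−2.79), and GPX4, at 256 and 1306 FPKM (−2.35), were also low, as was SELENOH (−2.38). SELENOO, at 44.1 and 21.9 FPKM (1.01), and TXNRD3, at 2.22 and 0.87 FPKM (1.26), lay at the other end. The position of the TGA differed, as shown with the codon in capitals.
SELENOW, codon 13 of a 264 nt frame, across a splice junction: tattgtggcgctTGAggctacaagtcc
GPX1, codon 49 of a 612 nt frame, chr3:49358120-49358146, minus strand: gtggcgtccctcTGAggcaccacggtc
GPX4, codon 73 of a 594 nt frame, chr19:1105391-1105417, plus strand: gtggcctcccagTGAggcaagaccgaa
SELENOO, codon 667 of a 2010 nt frame, chr22:50217346-50217372, plus strand: ctgtgcgtgacaTGAtcttcgtaacgg
TXNRD3, codon 642 of a 1932 nt frame, chr3:126607899-126607925, minus strand: cagaaaggctgcTGAggctaggcctgc
The first 3 frames have their TGA well ahead of the stop codon and the last 2 close to it. The first 3 frames are also the shorter ones. TXNRD1, with its TGA at codon 648, lay at 0.30, and SELENOK, with its TGA at codon 92 of a 285 nt frame, at −0.42.

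Glycolysis enzymes had the highest median of the lists. All 16 glycolysis enzymes lay above 0 and 10 of them (62.5%) were at least 2-fold higher, beside 14.3% of all genes, with a median of 1.22. ENO1 was measured at 3887 FPKM in polysomes and 1193 FPKM in sub-polysomes (1.70) and PGK1 at 241 and 58.0 FPKM (2.05), while GAPDH, at 5347 and 3889 FPKM (0.46), and HK2, at 14.6 and 11.0 FPKM (0.41), were the lowest. Proteasome subunits had a median of 1.08, with 21 of 37 (56.8%) at least 2-fold higher and none at least 2-fold lower. Their parts were alike, with medians of 1.39 for the 7 alpha subunits of the core, 0.95 for the 10 beta subunits, 1.27 for the 6 ATPases and 1.06 for the 14 other regulatory subunits. PSMC6, one of the ATPases, was measured at 61.7 and 13.7 FPKM (2.16) and PSMD5, an assembly chaperone, at 9.25 and 10.3 FPKM (−0.15).

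Genes of DNA replication and mitosis had a median of 1.09, with 18 of 33 at least 2-fold higher (54.5%, beside 14.3% of all genes). The mitotic cyclin CCNB1 was measured at 192 and 47.9 FPKM (2.00) and the helicase subunit MCM6 at 9.49 and 2.41 FPKM (1.93). The survivin gene BIRC5, at 62.3 and 80.1 FPKM (−0.36), lay lowest. Aminoacyl-tRNA synthetases had a median of 0.85, and all 40 lay above 0, the lowest, AIMP1, at only 0.01 and so below 0 when the median of all genes is set to 0. The list was led by AARS1 at 46.0 and 10.5 FPKM (2.12) and RARS1 at 55.6 and 14.8 FPKM (1.91). Tubulins had a median of 0.93 over 14 genes, with TUBA1C at 847 and 233 FPKM (1.86), extracellular matrix and adhesion genes 0.81 over 37, SR and hnRNP splicing factors 0.79 over 49 and nuclear pore proteins 0.75 over 50. Against the medians of their coding-length bins, these lists stood at 0.62, 0.24, 0.47 and 0.13, in the same order. Glycolysis enzymes stood at 0.92 on that measure, proteasome subunits at 0.87, replication and mitosis genes at 0.59 and aminoacyl-tRNA synthetases at 0.49. The highest nuclear pore value, of the importin gene IPO11 at 2.00 and 0.09 FPKM, rests on few sub-polysome fragments and on the pseudocount. The laminin chain LAMB3 was measured at 538 and 112 FPKM (2.26) and LAMB2 at 95.3 and 22.5 FPKM (2.08). The actin crosslinkers FLNA, at 272 and 62.8 FPKM (2.11), and FLNC, at 24.9 and 7.60 FPKM (1.70), lay in 1 list with the thymosins of the low end, so that the 28 actin and myosin genes ran from −3.32 to 2.11 with a median of 0.68.

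The 10 highest mRNAs at 10 FPKM or more were HNRNPH2, LOC112694756, METTL3, TNKS1BP1, NOMO1, LAMB3, PTGR1, FEN1, EIF4A3 and IKBKG. HNRNPH2 was measured at 41.1 FPKM in polysomes and 1.91 FPKM in sub-polysomes (4.36), but the readthrough gene RPL36A-HNRNPH2, which shares its exons, was at 5.35 and 30.7 FPKM, and the sum of both gave a ratio of 0.51. TNKS1BP1, a tankyrase-binding protein, was measured at 19.8 and 3.91 FPKM (2.31), the exon junction helicase EIF4A3 at 122 and 26.3 FPKM (2.21) and the flap endonuclease FEN1 at 93.4 and 20.1 FPKM (2.21). PTGR1, a prostaglandin reductase, was at 40.8 and 8.69 FPKM (2.22). NOMO1 (27.9 and 5.56 FPKM, 2.31) and IKBKG (31.1 and 6.73 FPKM, 2.19) have near-identical copies in the genome, so the division of their reads is uncertain.

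Lists of short mRNAs did not all lie low. Respiratory chain subunits, with a median coding length of 426 nt, had a median log2 ratio of 0.02 (below 0 when the median of all genes is set to 0), with 14 of 79 past 2-fold on the polysome side (17.7%) and 13 on the sub-polysome side (16.5%), near the 14.3% and 12.9% of all genes. Against the medians of their length bins they lay higher by 0.62. UQCRH, a complex III subunit, lay lowest at 252 and 1717 FPKM (−2.77, coding length 276 nt), and SDHA, the catalytic subunit of complex II, was at 109 and 32.3 FPKM (1.76, 1995 nt). Subunits of complex IV had a median of −0.57 (n = 11), those of complex I 0.17 (n = 38) and those of the ATP synthase 0.21 (n = 16). Mitochondrial ribosomal proteins lay at 0.36 (n = 82), or 0.49 above their length bins, whereas cytosolic ribosomal proteins lay 0.66 below theirs (−0.66). MRPL13 was at 75.9 and 24.2 FPKM (1.65) and MRPL33 at 247 and 1100 FPKM (−2.15, coding length 198 nt). Calcium-binding S100 proteins had a median of −0.46 (n = 10) but 0.42 against their length bins. Zinc finger ZNF genes went the other way, with a median of 0.00 (n = 197) and −0.35 against their length bins.

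Translation initiation factors had a median of 0.40 (n = 46), with EIF2B3 at 40.8 and 10.8 FPKM (1.91) and the translation repressor EIF4EBP1 at 153 and 326 FPKM (−1.09). Chaperones had a median of 0.66 (n = 60), led by the chaperonin subunit CCT2 at 156 and 37.7 FPKM (2.05), with DNAJC4 lowest at −2.09. Immediate early genes had a median of 0.09 (n = 26, below 0 with the median of all genes set to 0), from JUND at 618 and 1587 FPKM (−1.36) to MYC at 41.3 and 16.9 FPKM (1.29) and IER5 (1.34). Secreted cytokines and chemokines had a median of −0.24 (n = 22, above 0 with TPM or at a minimum mean of 10 FPKM), from IL24 at −1.46 to IL1B at 70.0 and 39.8 FPKM (0.81). Medians were 0.51 for cholesterol synthesis (n = 28), 0.43 for nonsense-mediated decay factors (n = 15), 0.43 for interferon-stimulated genes (n = 28), 0.38 for autophagy genes (n = 24), 0.38 for motor proteins (n = 45), 0.35 for ubiquitin-specific proteases (n = 36), 0.12 for solute carriers (n = 161) and 0.07 for m6A writers, readers and erasers (n = 17), and the last 2 fall below 0 when the median of all genes is set to 0. Against their length bins, the lists from cholesterol synthesis to m6A genes stood at 0.19, 0.25, 0.24, 0.30, 0.02, −0.20, −0.17 and −0.32, in that order. The 4 nuclear lncRNAs kept had a median of −0.56.

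Genes that the study followed are described next. LPP and PTPN14 were picked with these libraries in view, so they are no independent evidence of direction. LPP, an adhesion adaptor, was measured at 2.64 FPKM in polysomes and 1.46 FPKM in sub-polysomes (0.81), and the phosphatase PTPN14 at 8.12 and 5.10 FPKM (0.66). The receptor NRP2 was at 3.45 and 2.18 FPKM (0.64), the autophagy kinase ULK1 at 6.75 and 2.64 FPKM (1.32), caveolin CAV1 at 109 and 94.6 FPKM (0.21) and the cytokine IL6 at 218 and 194 FPKM (0.17). METTL3 had a log2 ratio of 2.52 in K177Q and 2.03 in WT. Of the genes named here, METTL3 and ULK1 were at least 2-fold higher in K177Q polysomes.

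The WT libraries gave a similar order of genes. Over the 10901 genes the log2 ratios had a Pearson r of 0.90 and a Spearman rho of 0.91, a description over genes that share lengths, annotation and gradient design. Of the genes at least 2-fold higher in K177Q polysomes, 1068 were so in WT too (68.5% of the K177Q genes and 78.1% of the WT genes), and 921 were lower in both (65.6% and 84.6%). The SD over genes was 1.003 in K177Q and 0.869 in WT, and the 5th to 95th percentile span was 9.25-fold and 6.99-fold. Ribosomal protein mRNAs had a WT median of −0.49, and 84 of 85 had a lower ratio in K177Q than in WT (82 with TPM). Small nucleolar RNA host genes had a WT median of −2.16 and proteasome subunits one of 1.28. With 1 library per pool and genotype analysed here, the genotype and the library cannot be told apart.

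**Figure D2:**
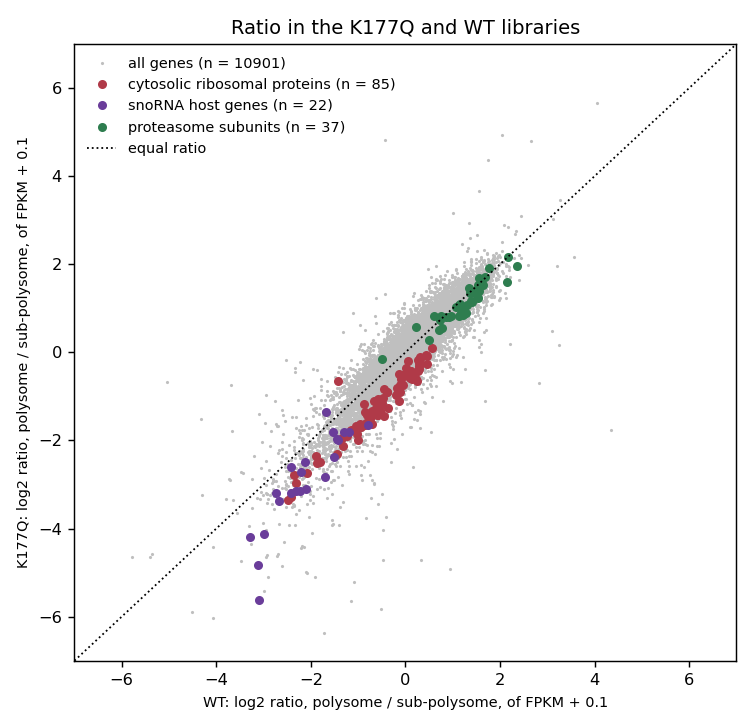
Log2 polysome to sub-polysome ratio in K177Q (vertical) against WT (horizontal) for 10901 genes, with ribosomal protein genes in red, small nucleolar RNA host genes in purple, proteasome subunits in green and the line of equal ratio dotted. The points follow the line with a Pearson r of 0.90, and 84 of 85 ribosomal protein genes lie below it.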

How the data were processed

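The authors deposited 1 table of FPKM values for 28198 genes. Per the labels' processing notes the tools were STAR 2.7 and StringTie 2.1.5 with hg38. The annotation, filters and use of strand are not given in the sources used here. FPKM hold no counts, and fragments per library were approximated from FPKM times length of single-transcript genes in the range 25 to 50, taken as 1 fragment. A further 4 value columns, whose names match no listed sample, were not used and may hold other libraries of these pools.

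Ratios were computed with a pseudocount of 0.1 FPKM in Python 3.11.15 (pandas 2.3.3, numpy 2.4.6, scipy 1.17.1) and the code was tested on simulated data. Without replicates no test was made. Symbols were matched to GENCODE 44 on GRCh38 (10673 of 10901 genes, and coding length for 10287 of 10379 mRNAs), 1 canonical transcript per gene.

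Genes and the 37 lists were chosen with earlier results of these data known. Genes named were, at 10 FPKM or more, the 10 highest and 10 lowest mRNAs and the 5 highest and 5 lowest noncoding RNAs, and, among all kept genes, the 2 highest and 2 lowest of each list of at least 5, and the study targets. The values of 2 genes are not reported here. After values were seen, 4 genes caught by name patterns were dropped from lists, 18 genes were added, and length bins, upstream ATG counts and the 3′ UTR bins were set, with 1 set of bins tried. Readthrough genes (151) were left out of the extremes. Alternatives covered pseudocount, filter, scaling, class, threshold and length bins.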

Additional observations from a re-analysis of the deposited data

Results flagged for a closer look

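Results were looked at again where the K177Q and WT log2 ratios of polysome to sub-polysome point opposite ways, with 1 library per pool, so none of these differences was tested. The histone gene H4C11 was at −1.76 in K177Q and 4.36 in WT, where its sub-polysome value was listed at 0. The histone gene H2AC4 was at 4.81 in K177Q, where its sub-polysome value was listed at 0, and at −0.44 in WT. Both were below 6 FPKM in every K177Q library, and ratios of values listed at 0 depend on the pseudocount. The replication-dependent histones as a list had medians of −0.23 in K177Q and 0.37 in WT over 25 genes. The iron regulatory genes had medians of 0.17 and −0.055 over 9 genes. The m6A writers, readers and erasers had medians of 0.066 in K177Q and −0.064 in WT over 17 genes. Of the 165 genes named by rule, 8 had opposite signs.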

How the results depend on the processing

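Values with no replicates were compared under other settings, and no cause of a difference was tested. No paired analysis was possible because only 1 library per pool and genotype could be matched to a listed sample, all with the same replicate number, so no library could be left out either, and the 4 unmatched value columns were not used. With a pseudocount of 1 the median log2 ratio was 0.14 and the SD 0.842. Without a filter 2349 genes were at least 2-fold lower and the median was 0.067, and with a minimum mean of 10 FPKM the counts were 901 higher and 691 lower and the median 0.20. With at least 1 FPKM in each library the SD was 0.896, and with mRNAs only the median was 0.21 and the SD 0.883. TPM gave 3402 higher and 845 lower with a median of 0.59, and equal totals outside ribosomal protein genes gave 2392 higher with a median of 0.37. Setting the median of all genes to 0 made it 0 by construction. A 1.5-fold limit gave 3288 and 2336 genes, and a 4-fold limit 71 and 426. Setting each coding-length bin to a median of 0, chosen after the data were seen, left 758 genes at least 2-fold higher, a median of 0 and an SD of 0.788. A pseudocount of 0.01 left these 4 values and the 37 list medians within their tolerances. These were 1.5 times for counts, a 95% interval over genes for medians and 10% for the SD. TPM moved 25 of 37 list medians beyond that interval, and the sign of 4 changed. Setting each coding-length bin to a median of 0 moved 15 list medians beyond it and left 18 within it. Sign changes with the filter were −0.11 (none) and −0.07 (minimum 10) for iron regulatory genes, and at a minimum of 10 FPKM 0.03 for cytokines, 0.20 for histones and −0.13 for m6A genes. The sign changed for 2 with equal totals and for 5 with the median set to 0. No list or named gene past 2-fold changed sign under the settings in which it had a value. With roughly 25200000 and 25800000 fragments in the K177Q libraries, values near 1 FPKM rest on few fragments where the transcript is short, and genes listed at 0 give no fold.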
